A study of Mus musculus with 173 samples.

Results

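The kidney transcripts ENSMUST00000085102, ENSMUST00000046689, ENSMUST00000020922 and ENSMUST00000086278, rose and fell together over 173 mice. They are 4 of the 37264 transcript rows of the array table, and the rule listed them by identifier because ENSMUST00000085102 had looked like a 2-class transcript and the others followed it. The listing therefore rested on the values of these same mice. Their distributions and their correlations with each other are given below as a description, without a test. The tables used here do not pair Ensembl transcript identifiers with gene symbols, positions or sequences, so the transcripts are called by their identifiers and no role is given to them.

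The mice were F2 males, 13 weeks old from an intercross that began with MRL/MpJ females and SM/J males. They came from a cross of 371 F2 animals, were housed singly for 3 days and fasted for 4 hours before collection, and all were kept alike, so they formed 1 group. Total RNA of each kidney was hybridised to 1 array. In whole-kidney RNA, fewer cells of a type and less RNA per cell cannot be told apart.

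In an F2 intercross every animal carries its own mixture of the parental genomes. A transcript that is controlled mainly by 1 autosomal locus tends to fall into discrete levels, with more animals heterozygous than homozygous for either allele, while a transcript shaped by many loci or by the state of the tissue spreads smoothly. Transcripts under the same influence move together across animals, in the same or in opposite directions, whatever chromosome they lie on.

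ENSMUST00000085102 had the widest spread of the 4. Its log2 array value was 6.77 in the lowest mouse, 8.00 at the median and 9.04 in the highest, a 4.82-fold range, and the quartiles stood at 7.31 and 8.48. Its SD of 0.61 (n = 173) ranked 54 among the 17110 distinct rows whose mean exceeded 7.25, the middle of all row means. Mice crowded at the low end and, more broadly, at the high end, with a small crowd between them, and no empty gap separated the levels.

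ENSMUST00000046689 ran from 7.21 through a median of 8.13 to 8.87, with an SD of 0.37. ENSMUST00000020922 ran from 8.94 through 9.64 to 10.32, with an SD of 0.31. ENSMUST00000086278 ran from 7.86 through 8.62 to 9.23, with an SD of 0.29. The SDs of these 3 ranked 181, 329 and 384 of 17110, so all 4 transcripts varied between animals more than 97.8% of those rows or more.

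A model of 2 Gaussian classes with a common SD and free shares put the low and high classes of ENSMUST00000085102 at 7.33 ± 0.04 and 8.40 ± 0.04 (SE over animals, n = 173), with an SD within classes of 0.30. The classes differed by 1.07 ± 0.05 on the log2 scale, which is 2.10-fold in array signal. The low class held 42.9% of mice (95% profile likelihood interval 34.5 to 51.5%). The low level lies close to the middle of all row means, where RMA compresses differences, so the fold describes signal and not a ratio of transcript amounts.

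The other transcripts had smaller steps and similar shares. The classes of ENSMUST00000046689 lay at 7.70 and 8.34, a difference of 0.64 ± 0.03 (SE) or 1.56-fold, with 38.2% of mice in the low class (30.0 to 47.0%). Those of ENSMUST00000020922 lay at 9.32 and 9.82, 0.50 ± 0.03 or 1.42-fold apart, with 42.0% in the low class (32.5 to 52.5%). Those of ENSMUST00000086278 lay at 8.29 and 8.77, 0.49 ± 0.03 or 1.40-fold apart, with 40.6% in the low class (31.5 to 50.0%). The 4 intervals of the low share overlap, and the high class was the larger one in each of these 4 fits. The intervals of ENSMUST00000085102 and ENSMUST00000020922 include equal shares, and that of ENSMUST00000086278 ends at 50.0%. All 4 fits use the same mice and correlated transcripts, so the overlap is not independent agreement.

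**Figure D1:**
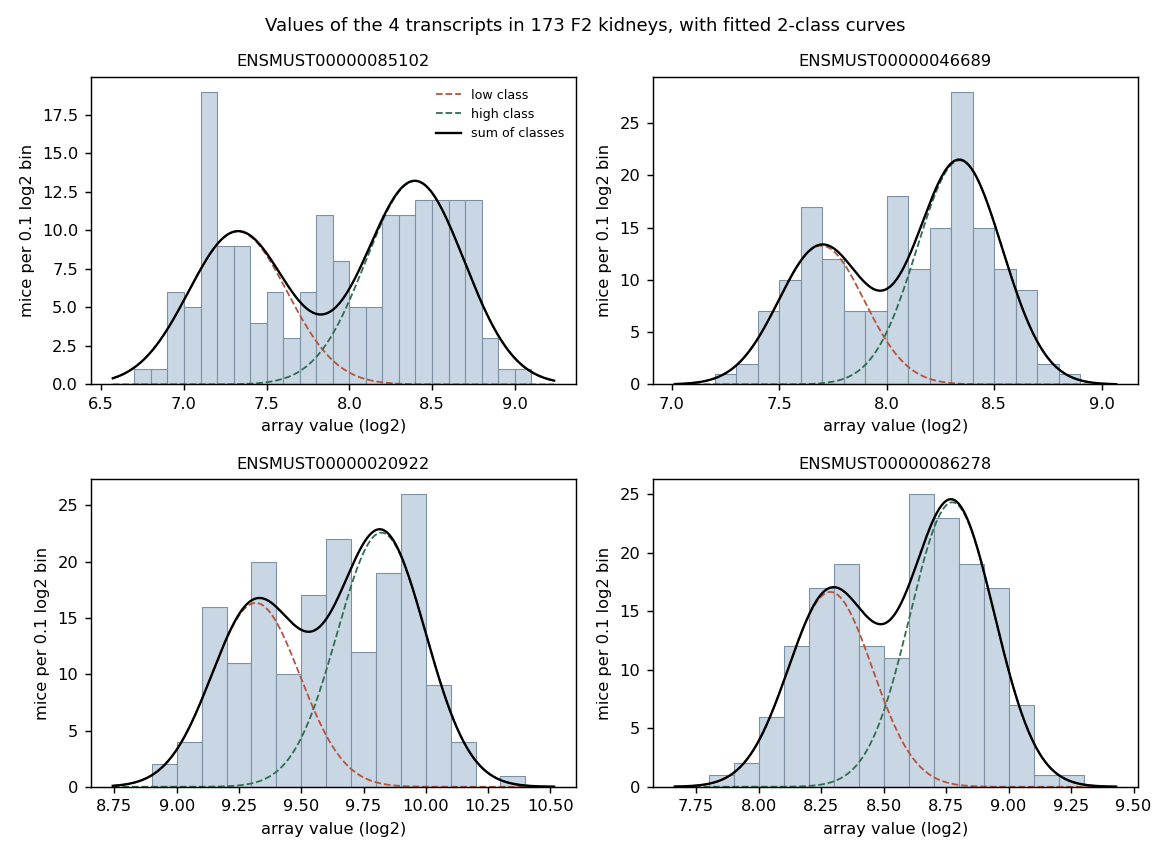
Histograms of the array value (log2, x axis) of each of the 4 transcripts as mice per bin (y axis), with dashed curves for the fitted low and high classes and a solid curve for their sum. The lead transcript ENSMUST00000085102 shows the deepest valley, and mice are found in the valley of every panel.

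The classes were not cleanly separated. They lay 3.59 within-class SDs apart for ENSMUST00000085102, 3.23 for ENSMUST00000046689, 2.85 for ENSMUST00000020922 and 2.89 for ENSMUST00000086278. At its lowest point between the classes, the fitted curve still stood at 45.6% of the lower peak for ENSMUST00000085102, at 67.0% for ENSMUST00000046689, and at 82.3% and 81.6% for the others. Between 26 and 33 mice had a value within 0.5 within-class SDs of the midpoint, depending on the transcript.

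Whether classes described the values better than a continuous spread was judged by the Bayesian information criterion (BIC), in which the lower value is the better description. The 2-class model with free shares led the best of 3 continuous distributions (Gaussian, skew-normal, Student t) by 28.1 for ENSMUST00000085102 and by 19.6 for ENSMUST00000046689. For ENSMUST00000020922 and ENSMUST00000086278 the leads were 9.66 and 8.79, just under the difference of 10 used for a call. Among all 17110 rows, 138 (0.807%) passed that difference, and since the rule used these values nothing is read from the count of 2 in 4. With the shares fixed at 1:1, which was tried only after the values were known, the leads were 30.8, 18.3, 12.6 and 10.4 in the same order, against 37 of all 17110 rows (0.216%) past that difference.

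Other shapes described the same values about as well, and for ENSMUST00000085102 better. A flat-topped continuous distribution (generalised normal), which was added after the data had been seen, had a lower BIC than the 2 free classes by 8.57 for ENSMUST00000085102, by 4.60 for ENSMUST00000020922 and by 0.22 for ENSMUST00000086278. For ENSMUST00000046689 the 2 classes kept a lead of 4.52 over it. For ENSMUST00000085102 the lowest BIC belonged to 3 classes with free shares, at 7.20, 7.90 and 8.53, holding 33.6%, 23.5% and 42.8% of mice. That model led the 2 free classes by 13.4 and the flat-topped distribution by 4.87. The ratio of 1:2:1 that an autosomal locus gives had a higher BIC than 2 free classes for all 4 transcripts, by 3.82 to 9.60. These differences are under the 10 used for a call. Over the bell-shaped distributions, 1:2:1 led by 18.5 for ENSMUST00000085102 and 15.4 for ENSMUST00000046689. Its leads were 5.84 for ENSMUST00000020922 and 2.46 for ENSMUST00000086278. Whether 1 locus sets these levels was not tested. The description as 2 classes therefore depends on which shapes are compared. With free shares it led the bell-shaped distributions by over 10 for 2 of the 4 transcripts, and it did not lead the flat-topped one by 10 for any.

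**Figure D2:**
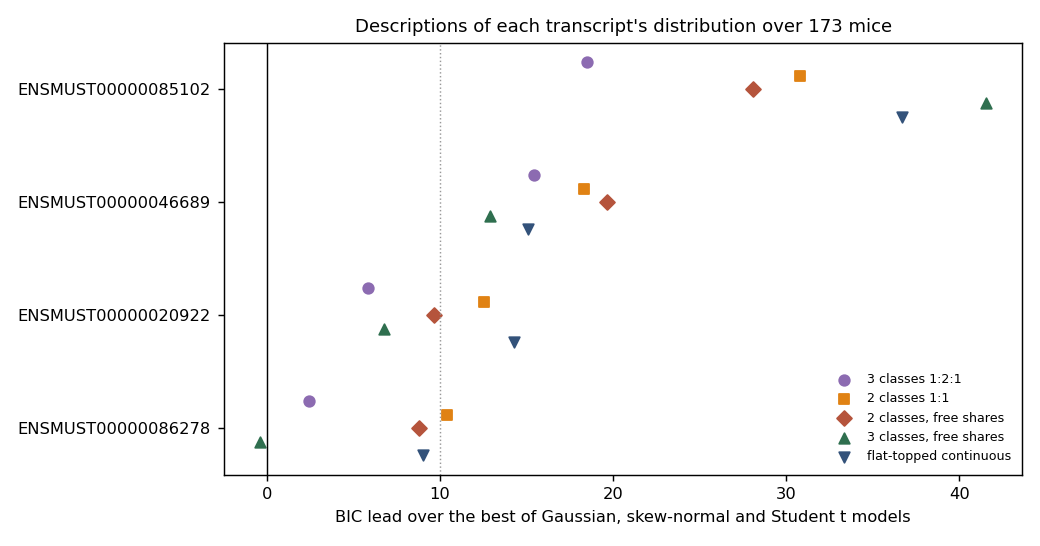
BIC lead (x axis) of 4 class models and of a flat-topped continuous distribution over the best of the Gaussian, skew-normal and Student t models, for each transcript (y axis). The dotted line marks the difference of 10 used for a call, and the flat-topped model stands to the right of 2 free classes for ENSMUST00000085102, ENSMUST00000020922 and ENSMUST00000086278.

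All 6 pairs of the 4 transcripts were positively correlated. The strongest was ENSMUST00000085102 with ENSMUST00000020922, with a Spearman correlation of 0.84 ± 0.03 (SE over animals, n = 173) and a Pearson correlation of 0.85. ENSMUST00000020922 also stood at 0.83 ± 0.03 with ENSMUST00000046689 and at 0.83 ± 0.02 with ENSMUST00000086278. The pairs without it were weaker. ENSMUST00000085102 reached 0.73 ± 0.04 with ENSMUST00000046689 and 0.65 ± 0.04 with ENSMUST00000086278, and the last 2 reached 0.72 ± 0.03 with each other. Leaving out the 2 mice farthest from the median of the first transcript moved the Spearman values to between 0.64 and 0.84.

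ENSMUST00000020922 was the common partner. Given the other 2 transcripts, its partial Spearman correlation was 0.59 with ENSMUST00000085102, 0.57 with ENSMUST00000086278 and 0.39 with ENSMUST00000046689. The 3 pairs without it had partial correlations of 0.14, 0.14 and -0.17. Its Spearman correlation with the mean z-score of the other 3 was 0.93, against 0.80 for ENSMUST00000085102, 0.82 for ENSMUST00000046689 and 0.79 for ENSMUST00000086278. In a model with 1 Gaussian factor behind all 4, that factor held 97.2% of the variance of ENSMUST00000020922 and 67.1 to 74.2% of that of the others.

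**Figure D3:**
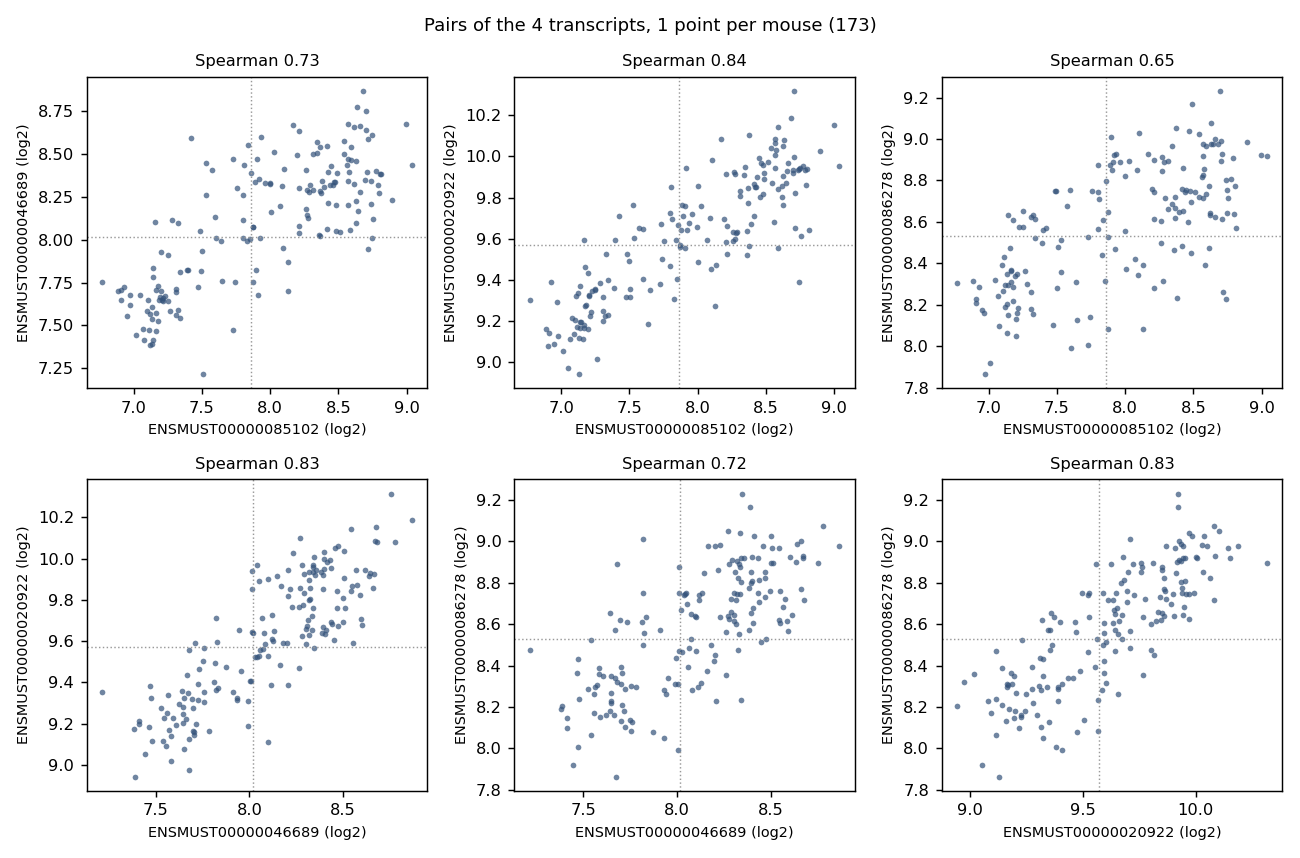
The 6 pairs of the 4 transcripts, with the log2 array value of each transcript on an axis and 1 point per mouse (n = 173). Dotted lines mark the midpoints between fitted classes; points run along the rising diagonal in every panel, and each panel also holds mice below one midpoint and above the other.

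The mice that stood low for one transcript mostly stood low for the others. In 48 of 173 mice (27.7%) all 4 transcripts lay below the midpoint of their fitted classes, and in 75 (43.4%) all 4 lay at or above it. The remaining 50 mice were mixed, with 1 transcript below in 18, 2 in 17 and 3 in 15. The agreement was widest for ENSMUST00000046689 and ENSMUST00000020922, which lay on the same side in 154 mice (89.0%), and narrowest for ENSMUST00000085102 and ENSMUST00000086278, with 133 (76.9%).

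Single animals show the joint movement. Mouse 14, lowest on the mean z-score of the 4 (the score), had values of 7.01, 7.44, 9.05 and 7.92 for ENSMUST00000085102, ENSMUST00000046689, ENSMUST00000020922 and ENSMUST00000086278. Mouse 62, highest on the score, had 8.68, 8.87, 10.19 and 8.98 in that order. Mouse 54, at the median, had 7.73, 8.47, 9.67 and 8.53. It lay below the midpoint of 7.86 for ENSMUST00000085102, within 0.5 within-class SDs of it, and above the midpoint of 8.02 for ENSMUST00000046689.

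Joint models of the 4 transcripts asked whether membership in a class was enough to carry the correlation. A model of 2 classes, within which the transcripts varied independently, had a BIC of 162.3 and was the poorer description, against 48.7 for 1 Gaussian factor. With 3 such classes the BIC was 74.8, and with their shares fixed at 1:2:1 it was 85.8, both poorer than the factor. When the transcripts were also allowed to vary together within the classes, a setting added after the data had been seen, 2 classes led the factor by 37.9 and 3 classes by 45.2. With shares fixed at 1:2:1, 3 classes of that kind led it by 27.9. The factor was Gaussian and no flat-topped joint model was fitted, so these leads do not tell classes from a flat-topped continuous spread. In that 2-class model the low class held 37.4% of mice, with levels of 7.28 and 8.33 for ENSMUST00000085102. The correlations within its classes ran from 0.24, for ENSMUST00000085102 with ENSMUST00000046689, to 0.67, for ENSMUST00000020922 with ENSMUST00000086278. In the 3-class model of the same kind, with a BIC of 3.43 against 10.7, they ran from 0.17 to 0.70 for the same pairs. In these models the 4 transcripts moved together within the fitted classes as well as between them. A continuous spread cut into classes would also leave such correlations, so they do not tell it from classes.

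Beyond the 4, the score was followed by 75 other rows above the median level at an absolute Spearman correlation above 0.4 (0.438% of those tested). Of 17106 rows, 58 (0.339%) rose with the score and 17 (0.0994%) fell with it. These rows were chosen by that correlation, so their values are a description. The median absolute correlation over all 17110 rows was 0.064. The nearest rows on either side of the threshold had correlations of 0.402 and 0.398 among positive rows and of -0.403 and -0.398 among negative ones, so the rule divides a continuous tail. Of the 17296 distinct rows that did not exceed the middle level, 24 (0.139%) rose with the score past the same threshold and 3 (0.0173%) fell with it.

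The closest positive rows were ENSMUST00000031604 and ENSMUST00000100765. ENSMUST00000031604 ran from 9.04 through a median of 9.46 to 9.91, and followed the score at 0.87. Its fitted level was 1.43-fold higher at the 95th than at the 5th percentile of the score. Its correlation with ENSMUST00000085102 was 0.85, within the error of the 0.84 between that transcript and ENSMUST00000020922. ENSMUST00000100765 ran from 6.49 through 7.57 to 8.38 and followed the score at 0.85, with a 2.08-fold fitted rise. The lower values of this row lie below the middle of all row means, so this fold too describes array signal. Its correlation with ENSMUST00000046689 was 0.94, the highest that any of the 4 had with any row. Whether these rows share probes or belong to 1 gene was not tested.

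The closest negative rows were ENSMUST00000023151 and ENSMUST00000043098. ENSMUST00000023151 had a wider spread than any of the 4 listed transcripts, from 6.89 through 8.39 to 10.15, a 9.57-fold range, and its SD of 0.91 ranked 19 of 17110. It stood at -0.85 with the score, with a fitted change of -2.38 on the log2 scale between the outer percentiles of the score, and between -0.73 and -0.82 with each of the 4. Its lowest values lie below the middle of all row means, so the fold describes array signal. A 2-class fit placed it at 7.85 and 9.45, with 60.6% of mice in the low class (52.0 to 69.0%), while a flat-topped distribution led the other continuous models by 32.8, against 25.5 for 3 free classes and 10.1 for 2. ENSMUST00000043098 ran from 8.35 through 9.24 to 10.23 and stood at -0.66 with the score, with a fitted change of -0.73. The best continuous model led 2 free classes for it, and its correlation with ENSMUST00000086278, at -0.44, was the weakest among the 4.

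**Figure D4:**
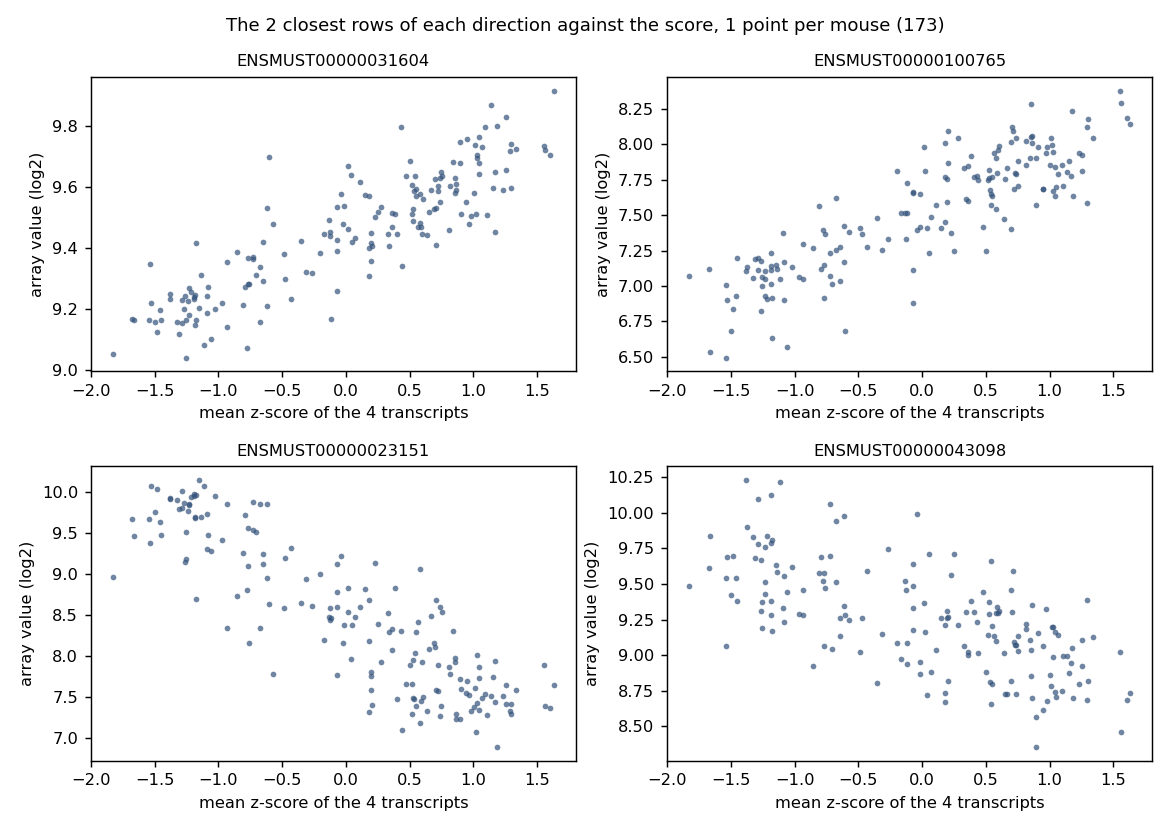
Array value (log2, y axis) of the 2 closest positive and the 2 closest negative rows against the mean z-score of the 4 transcripts (x axis), 1 point per mouse (n = 173). The upper panels rise and the lower panels fall with the score; ENSMUST00000023151 spans the widest range, and mice are found along the whole course of each relation.

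The other 71 followers mostly had smaller fitted changes. Between the same percentiles of the score, the median change was 1.16-fold among the 56 other positive rows and 1.12-fold among the 15 other negative ones, against 1.01-fold over all rows in either direction. The largest was 1.64-fold, in ENSMUST00000063320, which is named for that value after it was seen and was the only one of the 71 above 1.5-fold. This row stood at 0.68 with the score and at 0.81 with ENSMUST00000085102. A correlation above 0.6 in size was reached by 14 of the 56 positive rows and by none of the 15 negative ones. The SD of the 71 rows had a median of 0.13, against 0.11 over all rows.

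The followers were tied to ENSMUST00000086278 and ENSMUST00000020922 more often than to the other transcripts. Of the 75, 62 passed 0.4 with ENSMUST00000086278, 64 with ENSMUST00000020922, 47 with ENSMUST00000046689 and 43 with ENSMUST00000085102. All 4 were followed by 31 rows, 3 by 18, 2 by 14, 1 by 10 and none singly by 2. The score is made of these 4 transcripts, which also differ in their numbers of partners over all rows (given below). The difference between the follower counts was not tested. Among the 2775 pairs of followers, 15 exceeded 0.9 in size, and linking those left 60 sets. With the score held constant, the median absolute correlation between followers was 0.13, against 0.30 without that step, and 56 pairs stayed above 0.4 in place of 684. The followers were chosen by their correlation with the score, so a fall was built in and nothing is read from it.

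**Figure D5:**
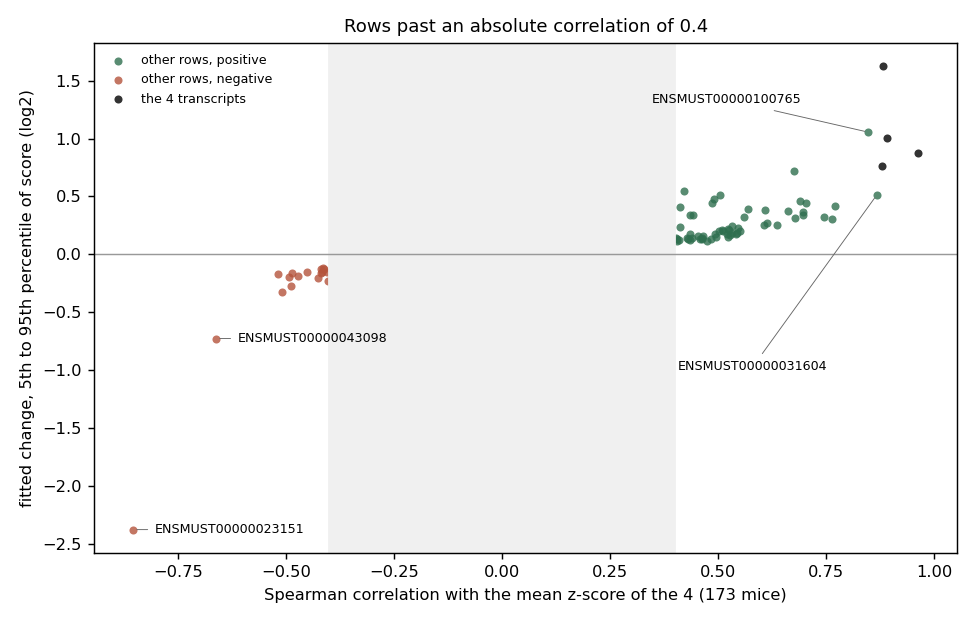
Spearman correlation with the score (x axis) against the fitted change over the span of the score (5th to 95th percentile, log2, y axis) for the 4 transcripts and the 75 rows past 0.4 in size; the grey band marks correlations that did not pass. Most followers lie within 0.5 of no change, and ENSMUST00000023151 falls the furthest.

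The partners of each of the 4 transcripts were counted over all rows above the middle level. An absolute Spearman correlation above 0.4 linked ENSMUST00000085102 to 54 rows, ENSMUST00000046689 to 52, ENSMUST00000020922 to 69 and ENSMUST00000086278 to 95. The median over all 17110 rows was 249 partners, with quartiles of 61 and 750, so that all 4 lay below the median and ENSMUST00000085102 and ENSMUST00000046689 below the lower quartile. The first 5 principal components of the 17110 rows, which carry variation shared by many transcripts, held 4.93 to 12.6% of the variance of each of the 4, against a median of 34.8% over all rows. The largest absolute Spearman correlation of the score with one of these components was 0.24, with the fourth. Transcripts that lead other co-varying sets did not pass 0.4 in size with the score. Their Spearman correlations were 0.10 for ENSMUST00000072818, 0.19 for ENSMUST00000087657, -0.067 for ENSMUST00000032373, -0.11 for ENSMUST00000030480 and -0.023 for ENSMUST00000019063. The median absolute correlation over all 17110 rows was 0.064.

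The number in the mouse label and the quality of the array were not used in choosing the 4 transcripts, and both were tested with limma over all 17110 rows with Benjamini-Hochberg adjustment. A linear trend along mouse number was called for 1791 rows (10.5%), upward in 6.27% and downward in 4.2%, and for none of the 4. Their slopes per 100 mice were -0.03 ± 0.09 (SE), 0.01 ± 0.06, 0.02 ± 0.05 and 0.04 ± 0.04 for ENSMUST00000085102, ENSMUST00000046689, ENSMUST00000020922 and ENSMUST00000086278, with adjusted p of 0.870, 0.950, 0.812 and 0.611 (limma, two-sided), and 0 of the 4 had an unadjusted p under 0.05. The labels give no collection date or batch, so mouse number is the only order that could be tested.

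Array quality was measured as log2 of 1 minus each array's correlation with a median array, which rises as an array departs from the rest. It was associated with 7435 of 17110 rows (43.5%), upward in 15.2% and downward in 28.3%, and with 1 of the 4. ENSMUST00000086278 was lower on arrays that departed more, by 0.19 ± 0.05 (SE) log2 units per doubling (limma, adjusted p = 0.0012, n = 173 arrays). The slopes were -0.09 ± 0.11 for ENSMUST00000085102, -0.03 ± 0.07 for ENSMUST00000046689 and -0.05 ± 0.05 for ENSMUST00000020922, with adjusted p of 0.519, 0.769 and 0.447. Of the 75 followers, 28 (37.3%) were called, 5 upward and 23 downward, and 4 (5.33%) had a trend along mouse number. The part of array quality in the correlations of ENSMUST00000086278 was not tested beyond leaving arrays out. The 5 arrays with the lowest quality, from mice 123, 103, 50, 47 and 59, had scores ranked 71, 58, 105, 30 and 103 of 173 from the lowest, none at either end. Without them the 6 pairwise correlations moved by less than their errors, and 58 positive and 22 negative rows followed the score. Array quality was then associated with 915 of 17110 rows in place of 7435, so the share of 43.5% depended on these 5 arrays. ENSMUST00000086278 was still the only 1 of the 4 called, at -0.21 ± 0.07 (SE; limma, adjusted p = 0.0435).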

How the data were processed

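The log2 values were made by the authors with affy and RMA and deposited as 1 table, per the submitters' processing notes. Versions and how probes were assigned to transcripts are not given in these sources. All arrays were complete: the table held 37264 rows and 173 arrays without a missing value; array means lay between 7.48 and 7.60, and the number of arrays limits the precision. Rows identical on every array to an earlier one (2858, no tolerance) were left out. The filter was a mean above 7.25, which left 17110 rows. RMA compresses differences of weak transcripts, and a sequence difference under a probe can mimic a change in level; neither was separated here.

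Class models were fitted by expectation-maximisation from 5 starts, standard errors come from leaving out each animal in turn, and share intervals from the profile likelihood. The score is the mean z-score of the 4 transcripts, with signs aligned to ENSMUST00000085102 (all positive). Slopes were tested with limma 3.58.1 in R 4.3.3, two-sided, with adjusted p below 0.05 as the threshold; other steps used Python 3.11.15, numpy 2.4.6 and scipy 1.17.1. The 2-class fit, the joint model of 2 independent classes, the follower rule and the limma slope were tested on simulated data. Joint classes with correlated transcripts and flat-topped values were not simulated. No pair of arrays was a copy (highest correlation after centring rows 0.620). Named rows are the 4, and the 2 highest and 2 lowest by Spearman with the score; ENSMUST00000072818, ENSMUST00000087657, ENSMUST00000032373, ENSMUST00000030480 and ENSMUST00000019063 were added as transcripts known from earlier results. The members, lists and thresholds were chosen with earlier results of these data known. Lists of cell type markers and pathways needed gene symbols and were not used here.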

Additional observations from a re-analysis of the deposited data

How the results depend on the processing

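No paired analysis was possible because the mice formed 1 group. Of 151 alternative values, 130 kept their direction and their side of the threshold, stayed within 1.5 times the count or within a set tolerance. That tolerance was wider than the SE for some values. For level differences it was the SD within classes, 0.17 to 0.30, so little is read from their staying within it. For low shares it was the profile likelihood interval. With the first 5 components removed, the level difference of ENSMUST00000085102 was 1.00, against 1.07 ± 0.05 (SE) in the main setting. That of ENSMUST00000046689 was 0.59, against 0.64 ± 0.03. That of ENSMUST00000020922 was 0.470, against 0.505 ± 0.031. All of these moved by more than their SE and are counted among the 130. So did the low share of ENSMUST00000085102 with the components removed (48.3%, against 42.9 ± 4.5%). The low share of ENSMUST00000046689 did so with separate SDs (31.9%, against 38.2 ± 4.4%). The 130 include all 30 of the pairwise correlations, which ranged from 0.65 to 0.85. With a generalised normal among the continuous models (added after seeing the data), the BIC lead of 2 classes became -8.57, 4.52, -4.60 and -0.22 in the order ENSMUST00000085102, ENSMUST00000046689, ENSMUST00000020922 and ENSMUST00000086278. With the first 5 components removed it was 5.96 for ENSMUST00000046689, 2.04 for ENSMUST00000020922 and 16.7 for ENSMUST00000086278. With a separate SD per class it was 6.26 for ENSMUST00000020922 and 3.96 for ENSMUST00000086278. It rose above 10 for ENSMUST00000020922 without the 5 arrays (10.3) and with shares of 1:1 (12.6; added after seeing the data), and for ENSMUST00000086278 after quantile normalization again (10.7) and with shares of 1:1 (10.4). With separate SDs the low share was 32.4% for ENSMUST00000085102 and 32.2% for ENSMUST00000020922. The negative followers, 17 in the main setting, were 27 after quantile normalization again and 46 with the components removed, which kept 16 and 17 of the 17. A threshold of 0.3 gave 116 positive and 87 negative rows, and 0.5 gave 33 and 4, as the threshold itself dictates. Rows with a trend along mouse number numbered 1114 with a spline. Rows associated with array quality numbered 14020 of 34406 without the filter and 915 without the 5 arrays. Without those arrays ENSMUST00000086278 had an adjusted p of 0.0435 (limma). The adjusted p of the trend in the 4 ranged from 0.313 to 0.970 (limma). Apart from the change of threshold, the cause of these changes was not tested. Arrays give no depth; the low level of ENSMUST00000085102 and the lowest values of ENSMUST00000100765 and ENSMUST00000023151 lie near or below the filter level.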

Other observations

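Among the weaker rows left out by the filter, correlations with the score reached 0.65 and -0.45. Over the 17110 rows above the median level, 57.6% had a positive correlation with the score of any size. The 2 closest negative rows, ENSMUST00000023151 and ENSMUST00000043098, were positively correlated with each other at 0.68, and the 2 closest positive rows, ENSMUST00000031604 and ENSMUST00000100765, at 0.68.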
